A study of Homo sapiens with 208 samples.

Results

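The cytosolic ribosome is built from a small and a large subunit, and the genes described here encode its proteins: the RPS genes those of the small subunit, the RPL genes, RPLP0, RPLP1 and RPLP2 those of the large one. Members were chosen by symbol alone, after the accession of each array probe had been matched to a RefSeq gene, and ribosomal protein S6 kinases and pseudogenes were left out. This gave 86 genes with 194 probes among 16961 genes with a probe. Of these, 84 were tested among 13263 genes. The other 2, RPS4Y1 and RPS4Y2, were not bright enough on at least 13 of the 26 arrays of any time course.

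The samples were 208 one-colour arrays of 2 human lung cancer lines. PC9 is a lung adenocarcinoma line that carries an activating deletion in the kinase domain of EGFR and is sensitive to gefitinib, an inhibitor of that kinase. PC9GRM2, as the labels spell it (PC9M2 in the study's text), is a gefitinib-resistant line obtained by culturing PC9 with the drug and refining clones, so that any difference between the lines is one between a parental population and 1 derived line. Both lines were starved for 48 h and then left untreated or given 100 ng/ml EGF, 0.5 uM gefitinib, or both, with gefitinib added ahead of EGF. Each of the 8 combinations was followed over 26 time points from 0 to 24 h with 1 array per time point. The time points of a course therefore stood in for replicates and are not independent, so that p-values measure only their spread.

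Ribosomal protein mRNAs are among the most abundant in growing cells. Most begin with a C followed by a run of pyrimidines, the terminal oligopyrimidine (TOP) tract, through which mTOR and LARP1 control their translation and stability. Because that control acts largely on translation, the level of these mRNAs is known for its steadiness, and several members serve as reference genes. A few members have a second gene copy that diverged in sequence or in tissue use, such as RPS27L beside RPS27, RPL22L1 beside RPL22, RPL26L1 beside RPL26, RPL39L beside RPL39, and the intronless RPL10L beside RPL10.

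The start regions of a few genes are shown because the results below compare gene copies with their parent genes, and TOP tracts lie at the start. RPL15, which has a result of its own, is added. Each window runs from 40 bases before the annotated start to 20 bases from it, in the direction of transcription, from RefSeq on GRCh38.p14. Capitals mark the start base and the 4 bases after it. The windows lie at chr1:153990722-153990781 (plus strand) for RPS27, chr15:63157458-63157517 (minus) for RPS27L, chr17:8383174-8383233 (minus) for RPL26, chr5:172958689-172958748 (plus) for RPL26L1, chr1:6199576-6199635 (minus) for RPL22, chr3:170870176-170870235 (minus) for RPL22L1, chrX:119791611-119791670 (minus) for RPL39, chrX:154398025-154398084 (plus) for RPL10, chr14:46651762-46651821 (minus) for RPL10L, chr6:42879576-42879635 (plus) for RPL7L1 and chr3:23916505-23916564 (plus) for RPL15.
RPS27: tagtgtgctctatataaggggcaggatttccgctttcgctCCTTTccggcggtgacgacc
RPS27L: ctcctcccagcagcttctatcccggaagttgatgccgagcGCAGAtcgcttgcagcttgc
RPL26: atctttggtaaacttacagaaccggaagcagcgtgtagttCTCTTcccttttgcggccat
RPL26L1: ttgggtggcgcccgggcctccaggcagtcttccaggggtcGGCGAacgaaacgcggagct
RPL22: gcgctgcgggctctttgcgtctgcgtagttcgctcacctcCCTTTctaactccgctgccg
RPL22L1: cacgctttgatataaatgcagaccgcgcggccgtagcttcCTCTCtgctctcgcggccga
RPL39: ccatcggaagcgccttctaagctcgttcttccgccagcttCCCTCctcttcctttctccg
RPL10: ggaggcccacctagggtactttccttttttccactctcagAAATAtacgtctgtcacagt
RPL10L: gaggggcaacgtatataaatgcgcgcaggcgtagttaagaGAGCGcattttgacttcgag
RPL7L1: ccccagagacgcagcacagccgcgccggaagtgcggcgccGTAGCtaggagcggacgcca
RPL15: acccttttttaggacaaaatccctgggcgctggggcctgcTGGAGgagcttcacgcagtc

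The longest pyrimidine run that covered the start or reached to within 5 bases of it was 9 bases long in RPS27, 14 in RPL26, 11 in RPL22, 10 in RPL22L1 and 22 in RPL39, and in these 5 genes it covered a C at the start. In RPS27L, RPL26L1, RPL10L and RPL7L1 the start base was G, so that no run covered it, and the longest run nearby was 2 bases long. The copies were not alone in this: RPL10 started with A, with a run of 5 bases before the start, and RPL15 with T, with a run of 3 bases before it. Where a gene had several entries only the first was used, so any other start of a gene is not covered. Of the 84 tested members 67 had an entry in the promoter table, and 17, RPL39L among them, were not matched. Over these 67, a C at the start followed by 4 pyrimidines was present in 43 (64.2%), against 729 of 15843 genes (4.60%) with a promoter of the same length. A run of at least 6 pyrimidines within 5 bases of the start was present in 51 members (76.1%) and in 22.3% of all promoters. In the 300 bases from 250 before to 50 after the start, searched on both strands, the ETS motif CCGGAAG was present in 23 members (34.3%) and in 14.2% of all promoters, and the YY1 motif AAGATGG in 9 (13.4%) and 6.40%. TATAAA was present in 7 members (10.4%) against 9.63% and the E box CACGTG in 4 (5.97%) against 8.88%. These matches describe letters in the windows and say nothing on binding.

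On the arrays these genes were very bright. The values below are quantile-normalized log2 intensities, and a difference of 1 is a 2-fold change. The median over the 84 genes lay between 15.9 and 16.4 on the 104 PC9GRM2 arrays, and 77 genes were well above background on all 208 arrays. Levels of different genes are not compared, since they come from different probes. On PC9 arrays the scanner reached its ceiling for most of them. The ceiling was 65526 intensity units on PC9 arrays and at least 778994 on PC9GRM2 arrays. The tested probe was saturated on all 104 PC9 arrays for 20 genes, among them RPL4, RPL8, RPL13, RPL18, RPL19, RPL23A, RPL27, RPL35, RPL35A, RPL38, RPL41, RPLP0, RPLP1, RPLP2, RPS2, RPS21, RPS27 and RPS27A. A further 25 were saturated on every array of at least 1 PC9 course, among them RPL7A, RPL10A, RPL11, RPL13A, RPL26, RPL28, RPL30, RPL32, RPL36A, RPL37, RPL37A, RPL39, RPS3A, RPS4X, RPS6, RPS7, RPS14, RPS15, RPS16, RPS18, RPS20, RPS23 and RPS24. In all, 68.3% of the members' values on PC9 arrays were saturated, against 1.54% over all tested genes, and none was in PC9GRM2. A saturated value is a bound that normalization still moves, so no change in level can be read from it. Values in PC9 are therefore given for single genes only where the tested probe was unsaturated on every array compared. This held on every PC9 array for 15 genes: RPL9, RPL10, RPL10L, RPL15, RPL21, RPL22, RPL26L1, RPL27A, RPL31, RPL34, RPL39L, RPL3L, RPL7L1, RPS26 and RPS27L.

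**Figure D1:**
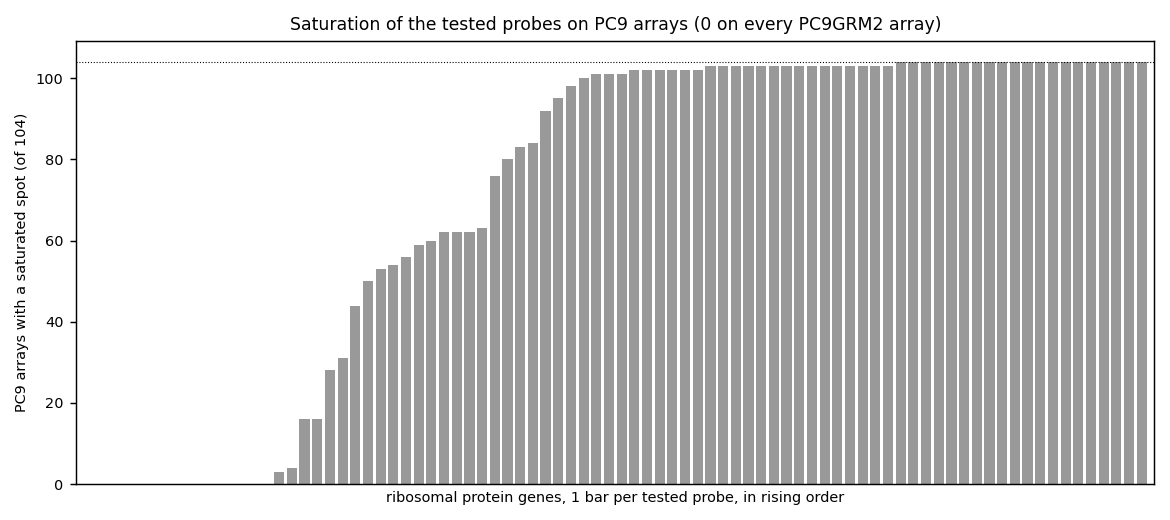
Number of PC9 arrays, of 104, on which the tested probe of each of 84 ribosomal protein genes was saturated, 1 bar per gene in rising order. The 15 genes at 0, which have no visible bar, are those whose tested probe was unsaturated on every PC9 array, and 20 genes stand at 104. Counting any probe of a gene, 19 genes had one that was unsaturated on every PC9 array.

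As a check of the treatment, the 4 genes listed for EGFR signalling all fell with gefitinib in PC9GRM2, for example DUSP6, a phosphatase induced by ERK, by 2.17 on the log2 scale, with a median of -1.36, and in PC9 with a median of -4.90. All 6 epithelial markers were well above background on every array, while the lung lineage factor NKX2-1 was so on 9 PC9 and 4 PC9GRM2 arrays. PTPRC, which marks leukocytes, was detected on 1 array, and COL3A1 of fibroblasts on 2 and 4, whereas CD68, PECAM1 and VWF were detected on at least 103 arrays of each line and NAPSA likewise. CD3E was detected on 52 PC9 and 32 PC9GRM2 arrays, DCN on 19 and 12, and SFTPB on 46 and 43. On each array 24755 to 36332 of 45015 features were well above background. The 4 treatments of a line at 1 time point shared a slide, 52 slides in all. The lines shared no slide and no scan day, so that line and scan period cannot be told apart. The untreated PC9GRM2 array at 11 h stood apart from its course (correlation with the course median 0.906, across genes), and results that rest on it were also computed without that time point. Values without it are printed for RPL10L and for counts that moved. Those of other single genes, such as RPL17, RPL5 and RPL12, include it.

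In PC9GRM2, where no probe was saturated, gefitinib left most ribosomal protein mRNAs within a few percent of the untreated level, while a small number moved more. RPS27L, a p53-responsive copy of the small subunit gene RPS27, rose 1.75-fold. RPL39L, a copy of RPL39 known from germ cells, fell, as did RPL26L1. With their tested probes RPL10L, RPL15, RPL17, RPL5 and RPL12, all of the large subunit, rose by 0.36 to 0.47 on the log2 scale. The brighter probes of RPL15 and RPL5 moved less, and the other probes of RPL17 and RPL12 are not given. Of 84 genes 27 rose and 5 fell (limma on differences at matched time points, two-sided, Benjamini-Hochberg adjusted over all 13263 genes at 0.05), where 32.6% of all tested genes rose and 34.2% fell. Among the members these shares were 32.1% and 5.95%. The median difference was 0.05, against -0.01 over all genes. Sizes were small: the median absolute difference was 0.08 against 0.32 over all genes, and only 4 of the 84 reached 0.5, against 32.5% of all genes. Both lines were normalized together, so saturated PC9 values entered the scale of the brightest PC9GRM2 spots. What this did to these sizes is not given. Intensities are relative to the rest of the array, so a change in total RNA per cell cannot be seen here.

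RPS27L in untreated PC9GRM2 ranged from 11.77 to 13.25 with a median of 12.51, and with gefitinib from 12.74 to 14.08 with a median of 13.15. The ranges overlapped, but the treated array was the higher at all 26 time points. The difference was 0.81 ± 0.07 (mean ± SE, n = 26 time points, limma adjusted p = 1.43e-10). With EGF in both courses RPS27L ranged from 11.61 to 12.92 without gefitinib and from 12.64 to 13.84 with it. That difference was 0.87 ± 0.08 and positive at 25 of 26 time points. From 0 to 5 h the difference without EGF averaged 0.35 ± 0.27 (SD, n = 7 time points), from 6 to 11 h 0.93 ± 0.34 (n = 6), and from 18 to 24 h 1.05 ± 0.16 (n = 7). The separation of the courses thus widened after the first hours. Its parent RPS27, a zinc-finger protein of the small subunit, averaged 17.2 with gefitinib and differed by 0.04 ± 0.03 (adjusted p = 0.232).

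RPL39L ranged from 11.98 to 12.65 without treatment (median 12.28) and from 11.36 to 12.36 with gefitinib (median 11.85). The treated array was the lower at 23 of 26 time points. The difference was -0.45 ± 0.06 (n = 26, limma adjusted p = 9.49e-08), and with EGF -0.48 ± 0.06. The fall deepened from -0.28 ± 0.25 at 0 to 5 h to -0.60 ± 0.20 at 18 to 24 h (SD, n = 7 time points each). RPL39, its parent and one of the smallest proteins of the ribosome, gave 0.08 ± 0.04 (adjusted p = 0.0713) without EGF and 0.07 ± 0.03 (adjusted p = 0.0307) with it.

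RPL26L1 ranged from 12.12 to 13.08 in untreated PC9GRM2 and from 11.77 to 13.19 with gefitinib, so the courses overlapped almost fully. At matched time points it was lower at 22 of 26, by -0.20 ± 0.06 (limma adjusted p = 0.00569), and by -0.24 ± 0.05 with EGF. RPL26, which also binds p53 mRNA, rose by 0.14 ± 0.03 and 0.08 ± 0.03. RPL10L ranged from 12.23 to 15.52 without treatment and from 15.35 to 15.70 with gefitinib. The lowest untreated value was that of the array at 11 h. RPL10L rose by 0.47 ± 0.12 (limma adjusted p = 0.00135), by 0.36 without the 11 h time point and by 0.45 ± 0.06 with EGF. RPL10L is close in sequence to RPL10, and which of the transcripts its probe bound cannot be told apart here. RPL22L1 (-0.04 ± 0.05, adjusted p = 0.499), RPL7L1 (-0.06 ± 0.05, adjusted p = 0.343) and the muscle-associated RPL3L (0.12 ± 0.10, adjusted p = 0.290) did not pass the test.

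Among members with no such role, RPL15, a core protein of the large subunit, ranged from 12.39 to 14.70 in untreated PC9GRM2 and from 12.92 to 13.97 with gefitinib. It rose by 0.40 ± 0.07 (limma adjusted p = 1.25e-05) and by 0.49 ± 0.06 with EGF, at 23 of 26 time points each. Its other, brighter probe rose by 0.07 ± 0.03 and 0.08 ± 0.02, so the direction was shared and the size was not. RPL17 rose by 0.42 ± 0.08 and, with EGF, by 0.19 ± 0.05, and RPL12, of the ribosomal stalk base, by 0.36 ± 0.08 and 0.18 ± 0.04. RPL5, which with RPL11 and 5S rRNA binds MDM2, ranged from 12.74 to 14.71 without and from 13.96 to 15.03 with gefitinib and rose by 0.36 ± 0.08 (limma adjusted p = 0.000155) and, with EGF, by 0.20 ± 0.04. The brighter probe of RPL5 gave 0.05 ± 0.04. RPS9, a small-subunit protein that helps accurate decoding, rose by 0.19 ± 0.04 and 0.21 ± 0.03. RPL35, beside the exit tunnel, fell by 0.13 on the log2 scale, and by 0.14 with EGF. Of its 3 other probes, 2 gave -0.13 and -0.11, while the probe saturated on the fewest PC9 arrays gave 0.07 ± 0.06 (limma adjusted p = 0.325), so the direction was not shared by all probes.

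The members most used as references or regulators moved little in PC9GRM2. The stalk protein RPLP0 differed by 0.01 ± 0.05 (limma adjusted p = 0.936). RPS6, the substrate of S6 kinase, differed by 0.04 ± 0.03 (adjusted p = 0.323). RPL11 differed by 0.04 ± 0.03 (adjusted p = 0.379). RPS19, mutated in Diamond-Blackfan anaemia, differed by 0.08 ± 0.05 (adjusted p = 0.164). RPL13A, a common reference gene, rose by 0.09 ± 0.04 (adjusted p = 0.0253) and RPL23, another MDM2 partner, by 0.15 ± 0.05 (adjusted p = 0.00453). RPL7 rose by 0.26 ± 0.07 (adjusted p = 0.00178), while RPL3, at the peptidyl transferase centre, gave 0.01 ± 0.04 (adjusted p = 0.763) and RPL22 0.12 ± 0.08 (adjusted p = 0.187).

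**Figure D2:**
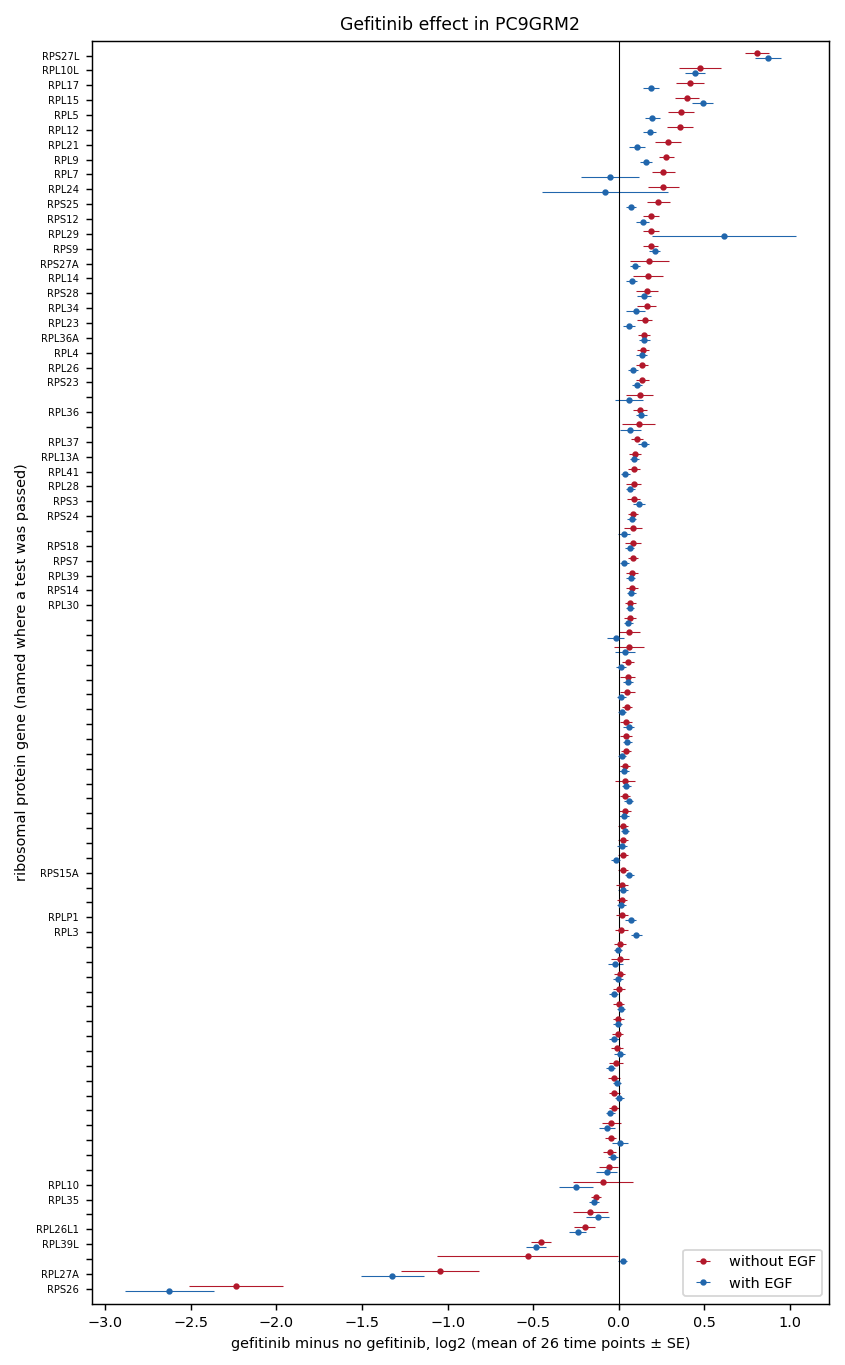
Mean log2 difference, gefitinib minus no gefitinib, in PC9GRM2, without EGF (red) and with EGF (blue), for 84 ribosomal protein genes, with the SE over 26 time points and a name where either test was passed. Without EGF, RPS27L stands highest at 0.81, most genes sit near 0, and RPS26 and RPL27A, whose tested probes are dim, are the lowest at -2.24 and -1.04.

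The lowest differences came from dim probes of genes whose other probes did the opposite. RPS26, near the mRNA exit channel, fell by 2.24 on the log2 scale with a probe of mean level 6.00, while its other 3 probes, of mean 12.87, 13.07 and 15.80, gave 0.27 ± 0.10, 0.20 ± 0.06 and 0.09 ± 0.04. RPL27A fell by 1.04 with a probe of mean level 8.10 and rose by 0.13 ± 0.02 with one of mean level 15.98. RPL10, which sits near the peptidyl transferase centre, gave -0.09 ± 0.18 (limma adjusted p = 0.670) with a probe of mean level 4.56, and 0.22 to 0.32 with its 4 other probes. The direction for these genes therefore depended on the probe. The falls of RPS26 and RPL27A came from 1 dim probe each, while every brighter probe of these genes and of RPL10 gave a positive difference. Over all 192 probes of the 84 genes, 156 gave a higher and 36 a lower mean with gefitinib, and in 41 of the 56 members with several probes all pointed the same way. Probes of the same gene are not independent, and the share over all probes of the array is not given. The size followed brightness. The median absolute difference was 0.20 over the 25 probes with a mean level under 14, 0.28 over the 13 between 14 and 15, 0.12 over the 55 between 15 and 16, and 0.04 over the 99 above 16. Whether the brightest spots understate changes was not tested.

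With EGF present in both courses of PC9GRM2, other arrays of the same slides, 31 members rose and 6 fell, where 36.7% of all genes rose and 37.8% fell. The median was 0.04, against -0.02 over all genes. Of the 32 members called without EGF and the 37 called with it, 25 were called in both (78.1% and 67.6%), all with the same sign. The overlap over all genes, most of which were called, is not given, so whether this overlap is particular to the members cannot be told. RPL10 also fell here, by 0.25, with its dim probe. RPL3 rose by 0.10 ± 0.03. When each array was scaled to its 75th percentile in place of quantile normalization, 12 members rose and 7 fell in this comparison. The split of the calls thus moved with the scaling, and the median was then 0.05 both for members and for all genes. The shares of all genes called under that scaling are not given.

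Other genes of ribosome synthesis moved differently. Of 30 tested ribosome assembly factors, 26 fell and 2 rose with gefitinib in PC9GRM2, with a median of -0.54, where 34.2% of all genes fell and 32.6% rose. NOP56, of the box C/D particles that modify rRNA, fell by 1.01, NOP2, an rRNA methyltransferase, by 0.96, and BYSL, needed for the small subunit, by 0.90 on the log2 scale. UBTF and NOB1 were those that rose, by 0.88 and 0.40. Over the 26 time points the median of the assembly factors lay between -1.02 and -0.20, below 0 at every one. The median of the ribosomal protein genes lay between -0.01 and 0.17 and was above 0 at 21. With EGF the corresponding ranges were -1.23 to 0.23 and -0.03 to 0.11. Of 25 other genes whose mRNAs carry TOP tracts 10 rose and 4 fell, with a median of 0.08; EIF4A2, a helicase of translation initiation, rose by 0.74 and IPO5, an import receptor, fell by 0.82. Of 76 mitochondrial ribosomal protein genes 19 rose and 38 fell, with a median of -0.12. Among 15 regulators 5 rose, near the share of all genes, and 9 fell: MYC, which drives ribosome synthesis, fell by 1.19, LARP1, which binds TOP mRNAs, by 0.67 and DDIT4, an mTORC1 inhibitor, by 0.85, while MAF1, a repressor of RNA polymerase III, rose by 0.65.

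**Figure D3:**
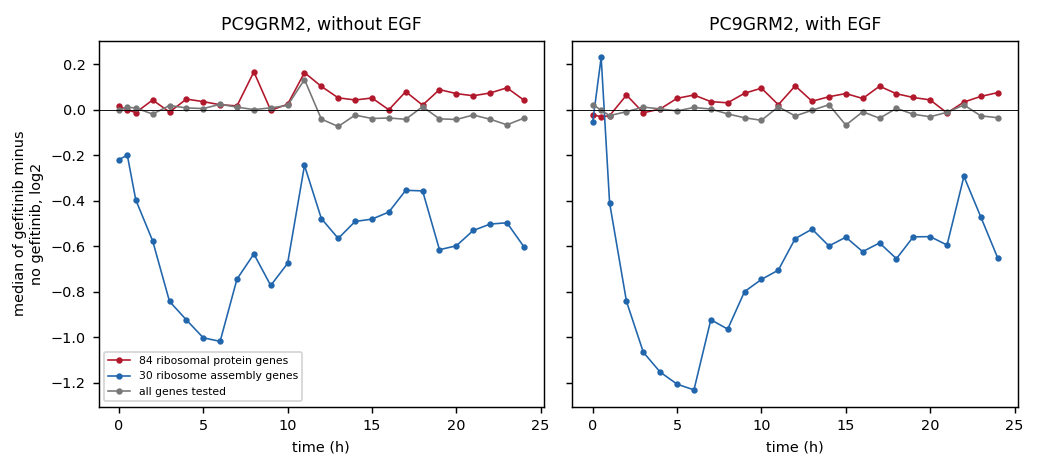
Median log2 difference, gefitinib minus no gefitinib, at each time point in PC9GRM2, without EGF and with EGF, for the ribosomal protein genes, the ribosome assembly factors and all tested genes. The ribosomal protein genes stay between -0.03 and 0.17 in both panels while the assembly factors lie below 0 at 26 and 25 of the 26 time points.

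In PC9 gefitinib raised RPS27L and lowered RPL39L too. Of all 84 members, saturated ones included, 36 rose and 5 fell, where 35.1% of all genes rose and 37.2% fell, and the median was 0.10 against -0.02. Of the tested probes only those of the 15 unsaturated genes can be read as levels: 7 of these genes rose, 3 fell and 5 did not pass the test. With EGF in both courses 46 members rose and 3 fell against 39% and 39.9% of all genes, and of the 15 unsaturated genes 6 rose and 3 fell. With each array scaled to its 75th percentile the counts over all 84 became 63 higher and 3 lower without EGF and 18 and 5 with it, so these counts depend on the scaling. The shares of all genes under that scaling are not given. Of 41 members called without EGF and 49 called with it, 30 were called in both (73.2% and 61.2%), with the same sign. Saturated probes are among them, and the overlap over all genes is not given.

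RPS27L in PC9 ranged from 11.44 to 12.82 without treatment (median 12.00) and from 12.08 to 13.31 with gefitinib (median 12.76). As in PC9GRM2, the treated array was the higher at all 26 time points. The difference was 0.63 ± 0.06 (limma adjusted p = 1.40e-09), and with EGF 0.75 ± 0.07, again at 26 of 26. At 0 to 5 h it already averaged 0.56 ± 0.35, and at 18 to 24 h 0.74 ± 0.11 (SD, n = 7 time points each).

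RPL39L ranged from 12.20 to 13.28 in untreated PC9 and from 10.06 to 12.47 with gefitinib, with the lowest value at 16 h. It did not differ at first, with -0.04 ± 0.20 at 0 to 5 h, and then fell to -0.70 ± 0.20 at 6 to 11 h, -1.47 ± 0.73 at 12 to 17 h and -1.57 ± 0.18 at 18 to 24 h (SD, n = 7, 6, 6 and 7 time points). Over the course the difference was -0.93 ± 0.14 (limma adjusted p = 1.03e-06) and lower at 22 of 26 time points, and with EGF it was -0.83 ± 0.13. RPL15 rose by 0.39 ± 0.10 and 0.58 ± 0.08, from -0.07 ± 0.35 at 0 to 5 h to 0.89 ± 0.15 at 18 to 24 h without EGF. RPL10L rose by 0.24 ± 0.06 and 0.36 ± 0.05. RPL22, whose product is dispensable for most translation, ranged from 9.96 to 11.55 without and from 10.53 to 11.74 with gefitinib and rose by 0.25 ± 0.07 (n = 25 pairs, as 1 outlying spot was left out, limma adjusted p = 0.00193) and by 0.30 ± 0.05 with EGF. Its 3 probes gave 0.22 to 0.25 without EGF. RPL9 rose by 0.23 ± 0.05 and RPL21 by 0.17 ± 0.07. RPL26L1 gave -0.09 ± 0.08 (adjusted p = 0.334), RPL7L1 -0.04 ± 0.06 (adjusted p = 0.546) and RPL3L 0.09 ± 0.11 (adjusted p = 0.472). The dim probes gave -2.06 for RPS26, -0.80 for RPL27A and 0.89 ± 0.20 for RPL10, and the brighter probes of these genes again did not share those sizes.

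**Figure D4:**
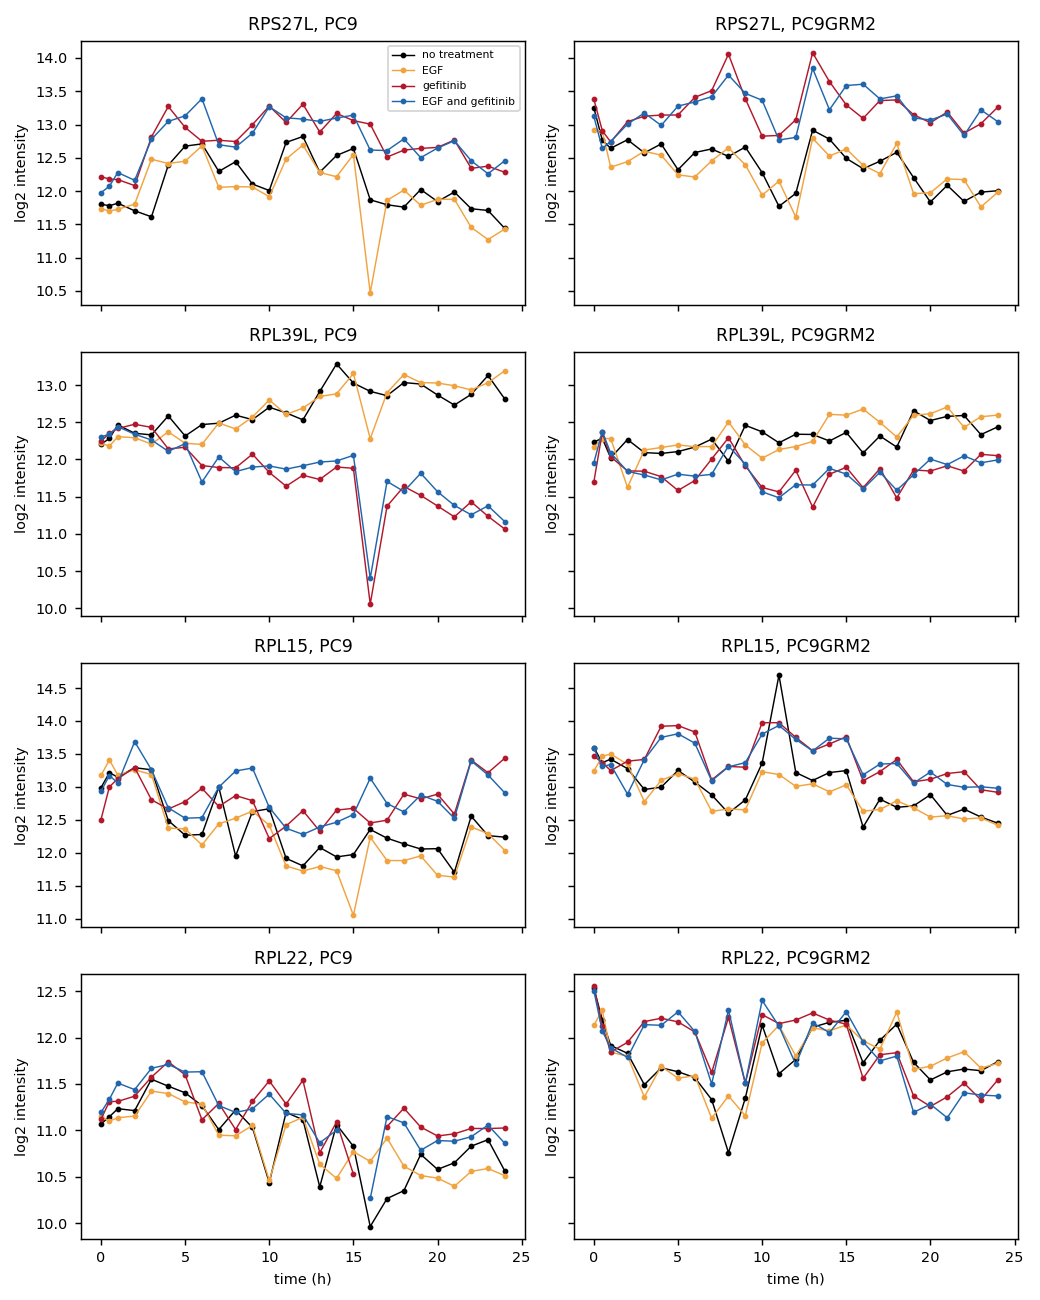
Log2 intensity of RPS27L, RPL39L, RPL15 and RPL22 over 0 to 24 h in PC9 and in PC9GRM2, 1 line per treatment and 1 array per point, with a gap where an outlying spot was left out. RPS27L runs mostly higher and RPL39L mostly lower with gefitinib in both lines. Single arrays stand out, such as RPL39L at 16 h in PC9 with gefitinib and RPL15 at 11 h in untreated PC9GRM2.

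The gefitinib effects of the lines were compared directly, as PC9GRM2 minus PC9. Of 84 members 3 were higher and 11 lower, where 17% and 16.9% of all genes were. The split was 2 and 4 with scaling to the 75th percentile and 7 and 7 with normexp background correction, and the shares of all genes are then not given. Among the 15 unsaturated genes only RPL39L and RPL10 passed the test. The effect on RPL39L was less negative in PC9GRM2 by 0.48 ± 0.13 (limma adjusted p = 0.00564), at 21 of 26 time points, and by 0.40 (adjusted p = 0.00782) without the 16 h time point. For RPL10 the difference of the effects was -0.98 ± 0.25 (adjusted p = 0.00332), with the dim probe. For RPS27L the effects differed by 0.18 ± 0.10 (adjusted p = 0.159). Of the 41 members called in PC9 and 32 in PC9GRM2, 20 were called in both (48.8% and 62.5%), 19 with the same sign. The PC9 calls include saturated probes, so these are not shared changes in level. Most tested genes were called in each line (35.1% rose and 37.2% fell in PC9, 32.6% and 34.2% in PC9GRM2), and their overlap is not given. The assembly factors fell in both lines, with a median of -0.91 in PC9, and 16 of 30 had a higher and 3 a lower effect in PC9GRM2.

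Almost no ribosomal protein gene was called for EGF. In PC9 none of the 84 rose and 1 fell, where 11.3% of all genes rose and 14.3% fell. The gene was RPS10, whose probe was saturated on part of the arrays. Most of the 84 were saturated on some PC9 arrays, so no lack of change can be read from them. Of the 15 genes unsaturated on every PC9 array 0 rose and 0 fell. In PC9GRM2 RPL27A rose by 0.23 ± 0.06 (limma adjusted p = 0.0156), with its dim probe, and none fell, where 4.09% and 5.04% of all genes did. At an unadjusted limma p under 0.05, 2 members were higher and 4 lower in PC9, and 4 higher and 1 lower in PC9GRM2. The share of all genes at that threshold is not given. The median member differed by 0.02 in PC9, saturated probes included, and by 0.01 in PC9GRM2.

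Between the untreated lines 43 members were higher and 26 lower in PC9GRM2, where 31.1% of all genes were higher and 37% lower. With gefitinib the counts were 41 and 25 (30.7% and 34.3% of all genes), with EGF 42 and 26 (32.8% and 37%), and with both 41 and 24 (31.5% and 36.2%). These counts cannot be read as levels, since the saturated PC9 values are bounds. Scaled to the 75th percentile, the untreated comparison gave 62 higher and 8 lower and moved the members' median from 0.29 to 1.46 and that of all genes from -0.05 to -0.02. The split was 63 and 8 with gefitinib, 61 and 8 with EGF and 61 and 9 with both. The shares of all genes called under that scaling are not given. Of the 15 unsaturated genes 4 were higher and 6 lower without treatment.

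The 4 higher in PC9GRM2 were RPL22, RPL10L, RPL15 and RPS27L. RPL22 ranged from 10.76 to 12.53 in PC9GRM2 against 9.96 to 11.55 in PC9 and was higher at 24 of 26 time points, by 0.87 ± 0.12 (limma adjusted p = 2.04e-07), and by 0.71 ± 0.08, 0.92 ± 0.10 and 0.66 ± 0.08 with gefitinib, EGF and both. RPL10L was higher by 0.82 ± 0.13 without treatment, and with gefitinib its ranges of 15.35 to 15.70 in PC9GRM2 and 14.09 to 14.90 in PC9 did not overlap, a difference of 1.05 ± 0.06 (limma adjusted p = 1.63e-15). Whether that probe bound transcripts of RPL10L or of RPL10 cannot be told apart, so the difference may not be one of RPL10L. RPL15 was higher by 0.63 ± 0.12 and RPS27L by 0.32 ± 0.11 (adjusted p = 0.00962), without treatment. The lower ones included RPL39L (-0.40 ± 0.06), RPL26L1 (-0.40 ± 0.10), RPL21 (-0.54 ± 0.14) and RPL9 (-0.23 ± 0.09), besides the dim probes of RPS26 (-2.01 ± 0.25) and RPL27A (-0.55 ± 0.09). For RPL26L1 the 3 probes, all unsaturated, gave -0.40, -0.03 and 0.11 ± 0.06, so this difference depends on the probe. For RPL21 the 2 other probes unsaturated in PC9 gave -0.39 and -0.41. Its probe of highest mean gave 0.58 but was saturated on 102 PC9 arrays, so that no level can be read from it. With gefitinib RPL39L did not pass the test, and the difference was -0.28 ± 0.07 for RPL5 and -0.54 ± 0.17 for RPL10. With both agents it was -0.39 ± 0.12 for RPL31 and -1.12 ± 0.41 for RPL24, with a median over time points of -0.66 for RPL24, since a single array at 18 h read 3.43 against a course median of 13.43. The probe of highest mean gave 0.25 for RPL24 (limma adjusted p = 5.19e-05), but it was saturated on all 104 PC9 arrays, so that no level can be read from it. The tested probe of RPL24 was saturated on 4 PC9 arrays, but on 0 of those with both agents. Similar lone dim spots occurred for RPL18, RPL23, RPL29 and RPL3L.

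**Figure D5:**
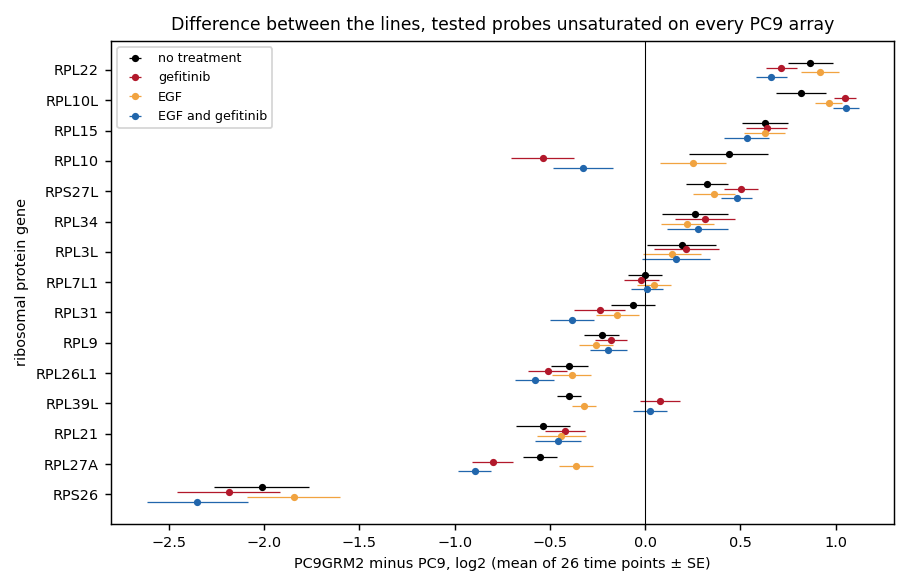
Mean log2 difference, PC9GRM2 minus PC9, with the SE over 26 time points, for the 15 ribosomal protein genes whose tested probe was unsaturated on every PC9 array, by treatment. RPL22, RPL10L and RPL15 lie to the right of 0 under every treatment and RPS26 far to the left.

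In PC9GRM2 without treatment the ribosomal protein genes moved less over 24 h than most genes. There 23 of 84 changed over time (limma F-test of a spline with 4 degrees of freedom), against 67.2% of all genes, and the median range of the fitted course was 0.38 against 0.98. In PC9 25 changed, against 66.3%, but 13 of the 15 unsaturated genes were among them, with a median range of 1.04 against 0.98 over all genes. The other 69 were saturated on at least 1 PC9 array. The SD over the time points of a course had a median of 0.13 to 0.18 in PC9GRM2 for members and of 0.39 to 0.46 for all genes. In PC9GRM2 9 of the 84 genes changed with a fitted range of at least 1, as did 41.3% of all genes: RPS26 (3.13, lowest at 0 h), RPS28 (2.40), RPL27A (1.80), RPL37A (1.45), RPS19 (1.16), RPS27L (1.14), RPS3 (1.099), RPL22 (1.06) and RPL15 (1.03). The highest fitted level of RPS27L, RPL22 and RPL15 was at 0 h, and those of RPS19 and RPS3 were too. The lowest of RPS19 and RPS3 was at 11 h, the time of the array that stood apart. That of RPS28 and RPL37A was at 12 h, the next time point. The RPS26 and RPL27A ranges came from their dim probes, and the brighter probes of these genes gave the opposite sign with gefitinib. The ranges above include the 11 h time point. Without it 36 members changed, and the share of all genes is then not given. More members also changed when the PC9GRM2 arrays were normalized without those of PC9.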

How the data were processed

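RNA was labelled with Cy3 and hybridised to one-colour Agilent 44K arrays. The deposited values are intensities in scanner units that the authors obtained with Feature Extraction 10.5.1.1, with local background subtracted. The authors also deposited a table that holds the same intensities quantile normalized over 45015 features. Here log2 values were computed from the deposited intensities once the 208 arrays had been quantile normalized together, values under 1 set to 1 and outlier spots left out. Of 41000 probes 24794 matched a symbol, by the annotation of 204 arrays (4 others carry 1684 differing names). The probe of largest variance stood for a gene. Differences at matched time points were tested with limma 3.58.1 in R 4.3.3, two-sided, Benjamini-Hochberg adjusted at 0.05 over 13263 genes with a probe well above background on at least 13 arrays of a course. ± is the SE unless said otherwise. The fits were tested on simulated data.

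The ribosomal protein genes and the other lists were chosen with earlier results of these data known. Named were the 5 called members with the largest difference per comparison and direction, 7 divergent copies with their parents, members saturated throughout a course (some are not reported here), and RPLP0, RPS6, RPL5, RPL11, RPS19, RPL13A and RPL23. In comparisons with PC9 the first rule was restricted to unsaturated probes, after the saturation was seen. Alternatives changed the background correction, normalization, probe, filter, saturated spots, pairing, dependence of time points and test. The number of arrays limits the precision.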

Additional observations from a re-analysis of the deposited data

Results flagged for a closer look

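The gefitinib effect on RPL39L, the copy of RPL39, differed between the lines in a direct test: PC9GRM2 minus PC9 was 0.48 ± 0.13 on the log2 scale (n = 26 time points, limma adjusted p = 0.00564), with -0.45 in PC9GRM2 and -0.93 in PC9. Without the 16 h time point it was 0.40 (adjusted p = 0.00782). Over 14 alternatives the value lay between 0.33 and 0.50, with adjusted p from 0.00454 to 0.332, and 2 of them no longer passed.

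The gefitinib effect on RPL10 differed by -0.98 ± 0.25 (limma adjusted p = 0.00332), with a probe of mean level 4.56 that was well above background on 135 of 208 arrays. With the probe of highest mean the difference was 0.19 (adjusted p = 0.0435), and that probe was saturated on 101 of 104 PC9 arrays.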

How the results depend on the processing

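Of the recomputed counts of members called, 113 stayed within 1.5 times the reported count and 57 did not. The shares of all genes under these alternatives are not given. Below, the comparisons are named gefitinib in PC9 (41 called), gefitinib in PC9GRM2 (32), the same with EGF (49 and 37), the difference of the gefitinib effects (14), EGF in PC9 (1) and in PC9GRM2 (1), the lines untreated, with gefitinib, with EGF and with both (69, 66, 68 and 65), and time in PC9 (25) and in PC9GRM2 (23). With unpaired courses the counts became 11 and 17 for gefitinib with EGF in PC9 and PC9GRM2, 4 for the difference of the effects and 0 for EGF in each line. With the 75th percentile they became 66 for gefitinib in PC9, 23 and 19 for gefitinib with EGF in PC9 and PC9GRM2, 6 for the difference, and 79 and 35 for time in PC9 and PC9GRM2. With normexp background correction they became 26 and 19 for gefitinib in PC9 without and with EGF, and 35 for time in PC9GRM2. With saturated spots left out, which left 21 to 27 members tested in comparisons of courses with PC9, they became 12 and 11 for gefitinib in PC9 without and with EGF, 3 for the difference, 0 for EGF in PC9, 12, 13, 14 and 12 for the lines in the order above, and 13 of 15 for time in PC9. With time points 3 h apart, which leaves fewer time points, they became 8 and 17 for gefitinib in PC9 without and with EGF, 11 and 8 in PC9GRM2, and 0 for the difference and for EGF in each line. With the variance inflated for lag-1 autocorrelation they became 2 for the difference and 0 for EGF in PC9. With the probe of highest mean they became 8 for time in PC9 and 0 for EGF in each line. With the mean of all probes the difference of the effects had 9. With scan day as a random block time in PC9GRM2 had 8. The one-sided test for higher levels in PC9GRM2 counts only 1 direction and gave 43, 41, 42 and 41 for the lines in the order above. EGF in PC9 also had 0 with no filter on dim genes, with the deposited table and with the methods' t-test.

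Of the alternatives, 4 were chosen after seeing the data. With the probe saturated on the fewest arrays and saturated spots left out, the counts became 13 and 15 for gefitinib in PC9 without and with EGF, 3 for the difference, 2 for EGF in each line, 16, 18, 15 and 15 for the lines in the order above, and 15 for time in PC9. With quantile normalization over PC9GRM2 alone time in PC9GRM2 had 35. Without the 11 h time point it had 36, and EGF in PC9GRM2 had 2. Without the 16 h time point every count of comparisons with gefitinib-treated PC9 stayed within 1.5 times. Where no cause is given, it was not tested.

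Over the named genes 955 values kept direction and side of the threshold, 97 no longer passed and 30 turned sign. With the probe of highest mean RPS26 turned to 0.076 and 0.15 for gefitinib in PC9 without and with EGF, 0.089 and 0.12 in PC9GRM2, and 0.13, 0.15, 0.19 and 0.16 for the lines in the order above. RPL27A turned to 0.22 and 0.11 in PC9, 0.13 and 0.084 in PC9GRM2, and 0.81, 0.72, 0.75 and 0.72 for the lines, and with the mean of all probes to 0.13 for the untreated lines and 0.19 for the lines with EGF. RPL10 turned to 0.19 for the difference of the effects and 0.27 for gefitinib with EGF in PC9GRM2, and with the mean of all probes to 0.19 for the latter and 0.28 for the lines with gefitinib. With the probe of highest mean RPL21 turned to 0.58, 0.47, 0.52 and 0.45 for the lines, RPL26L1 to 0.11 and 0.037 for the lines untreated and with EGF, and RPL24 to 0.25 for the lines with both, where the PC9 spots of those RPL21 and RPL24 probes were saturated on 102 and 104 of 104 arrays. RPL35 turned to 0.073 for gefitinib in PC9GRM2 with the probe saturated on the fewest arrays. RPS27L passed under all alternatives for gefitinib in both lines, without and with EGF. Saturation limits what can be said of most members in PC9, and 1 array per time point limits every test. Courses were paired by time point throughout, and the counts with unpaired courses stand above.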
